A study of Sus scrofa with 30 samples.

Results

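Neonatal porcine islet cell clusters (NICCs) that had matured with the TGF-beta receptor inhibitor SB431542 were compared with clusters that had matured with albumin alone. The members were chosen by their labels: 4 RNA sequencing libraries of NICCs in human serum albumin with SB431542 (HSA + SB/d5) and 4 in human serum albumin only (HSA/d5), both at culture day 10. These are 8 of the 24 libraries in the series.

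The NICCs, clusters of endocrine and other pancreatic cells, came, by the study's account, from piglets aged 4 or 12 days and were cultured for 5 days before maturation began, so that culture day 10 is maturation day 5 (d5) and culture day 6 is maturation day 1 (d1). The groups described here all received human serum albumin (HSA) at 0.6 mg/ml, and the HSA + SB/d5 group also received SB431542 at 10 µmol/l. The culture was repeated with 4 islet preparations, but the labels do not say which library came from which preparation or from piglets of which age. The 4 replicate numbers used here follow the library numbers in the titles, 6 consecutive libraries to a number, and within each number expression in the HSA/d5 and HSA + SB/d5 libraries varied together. The comparison addresses which genes depend, while the clusters mature, on the type I receptors for TGF-beta and activin that SB431542 blocks. It cannot tell these receptors apart.

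TGF-beta and activin bind paired type II and type I receptor kinases, and the type I kinases TGFBR1, ACVR1B and ACVR1C phosphorylate SMAD2 and SMAD3, which join SMAD4 and enter the nucleus. There they induce inhibitors of the same pathway, such as SMAD7 and SKIL, and genes of the extracellular matrix. SB431542 blocks those type I kinases and spares the kinases of the bone morphogenetic protein (BMP) receptors, and in pancreatic islets the pathway is known for its part in matrix deposition, beta cell proliferation and beta cell differentiation.

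Depth was similar in both groups, with 19095896 to 22274149 assigned reads in the HSA/d5 libraries and 19533939 to 24346119 in the HSA + SB/d5 libraries. Levels are given as CPM, the reads of a gene as a share of all reads of the library after scaling between libraries, in units of 1e-06, and were not corrected for gene length. Where 4 values follow each other they are replicates 1 to 4 in order. A log2 fold change is that of HSA + SB/d5 over HSA/d5, so that negative values mean a lower level with the inhibitor, and SE is its standard error. The adjusted p comes from edgeR's quasi-likelihood test with Benjamini-Hochberg adjustment over the 14842 genes with enough reads to test. A gene is said to have passed both thresholds, and to have risen or fallen past both, when its log2 fold change was above 1 or below -1 and its adjusted p was below 0.05.

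More genes fell than rose with the inhibitor. Both thresholds were passed by 223 genes that fell, 1.5% of those tested, and by 136 that rose, 0.916%. Their medians were -1.78 for the falls and 1.61 for the rises on the log2 scale. The falls also reached further: 32 genes fell by more than 3 log2 units and 10 rose by more than that. By adjusted p alone, 562 genes fell (3.79%) and 495 rose (3.34%). By sign alone, 7271 of the genes tested had a negative log2 fold change and 7571 a positive one. With the replicate number as a block in edgeR, 371 genes (2.5%) fell and 268 (1.81%) rose past both thresholds, and by adjusted p alone 1848 fell (12.5%) and 1851 rose (12.5%). All 223 falls and 135 of the 136 rises were also called with the block. A fit on the 8 libraries alone, which estimates the spread between replicates from these libraries only, gave 91 falls and 68 rises past both thresholds. Of the genes past both thresholds that are described here, 17 lost their call in that fit, and their adjusted p in it is given with each. Without any test, the 4 HSA + SB/d5 libraries all lay below the 4 HSA/d5 libraries for 857 genes (5.77%) and all above them for 904 (6.09%). Of the genes past both thresholds, 176 of the 223 that fell and 114 of the 136 that rose had no overlap between groups, and 213 and 135 went the same way in all 4 same-numbered pairs. In whole clusters, fewer cells of a type and less RNA per cell cannot be told apart.

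In each group a library stood apart. HSA/d5 replicate 3 held the lowest level among the HSA/d5 libraries for 127 of the 223 genes that fell, against 15, 31 and 50 for replicates 1, 2 and 4, while over all genes tested the lowest library was nearly evenly spread (3023, 3735, 3911 and 4173). Its matrix transcripts were already low without the inhibitor, as given with the matrix genes. Without this library, 269 genes fell and 119 rose past both thresholds. HSA + SB/d5 replicate 4 held the highest level among the treated libraries for 107 of the 223, against 35, 48 and 33 for replicates 1, 2 and 3. Over all genes tested, replicates 1 to 4 were highest for 3222, 3972, 3282 and 4366. Without HSA + SB/d5 replicate 4, 249 genes fell and 127 rose. In a principal component analysis of the 8 libraries the first component held 36.0% of the variance. Along it, each HSA + SB/d5 library lay above the HSA/d5 library of its number, at 41.1, 42.4, 11.6 and -9.86 against -6.99, -4.54, -23.4 and -50.3. The groups overlapped there, with replicate 4 low in both. The second component, with 26.6%, placed replicates 1 and 2 above replicates 3 and 4 within each group.

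Among the ligands, receptors and SMADs, the largest falls were in an activin subunit, INHBA, and in LTBP2, a relative of the latent TGF-beta binding proteins, and another activin subunit rose. Of 23 such genes, all tested, 6 fell and 1 rose past both thresholds, with a median log2 fold change of -0.27 beside 0.00 over all genes tested. In the fit on the 8 libraries 2 fell and 1 rose. INHBA encodes the subunit of activin A, which signals through ACVR1B. INHBA stood at 60.3, 55.9, 62.6 and 70.8 CPM in the HSA/d5 libraries and 5.31, 3.58, 5.63 and 9.6 CPM in the HSA + SB/d5 libraries. Every HSA/d5 library was several fold above every HSA + SB/d5 library (log2 fold change -3.37, SE 0.23, adjusted p = 1.7e-08 by edgeR). INHBB, the subunit of activin B, went the other way, from 17.6, 13.4, 15.8 and 22.3 CPM to 44.6, 32.6, 45.8 and 61.8 CPM. All HSA + SB/d5 libraries lay above all HSA/d5 libraries (log2 fold change 1.42, SE 0.27, adjusted p = 0.0028). Follistatin (FST) and follistatin-like 3 (FSTL3), secreted proteins that bind and neutralise activin, both fell. FST read 3.07, 1.89, 2.87 and 1.59 CPM without and 1.07, 0.665, 1.16 and 1 CPM with the inhibitor (log2 fold change -1.26, adjusted p = 0.0025, in the fit on the 8 libraries 0.058). FSTL3 read 84.2, 89.3, 47 and 68.8 CPM without and 29.2, 37.7, 27.1 and 27.1 CPM with it (log2 fold change -1.26, adjusted p = 0.0019).

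The TGF-beta ligand TGFB1 and proteins that store TGF-beta or present it to its receptors were lower too, by amounts that ranged widely. TGFB1 stood at 80.9, 79.1, 45.1 and 97.8 CPM in HSA/d5 and 44.3, 45.2, 38.6 and 55.4 CPM in HSA + SB/d5, a log2 fold change of -0.72 with an edgeR adjusted p of 0.015 that did not pass the fold threshold. Only HSA/d5 replicate 3 reached into the range of the other group. LTBP2, a matrix protein related to the binding proteins of latent TGF-beta, read 6.05, 6.62, 23.7 and 39.1 CPM and 2.14, 2.2, 2.7 and 5.59 CPM in the same order. The groups did not overlap, although the HSA/d5 libraries ranged widely, with replicates 3 and 4 high (log2 fold change -2.58, adjusted p = 0.0452). Its call was lost in the fit on the 8 libraries (adjusted p = 0.085), with no filter on low counts (0.055) and when 1 library was left out in 5 of 8 cases (HSA/d5 replicates 3 and 4 and HSA + SB/d5 replicates 1, 2 and 3), with adjusted p values of 0.073 to 0.17. LTBP1, which holds latent TGF-beta in the matrix, fell (log2 fold change -1.24, adjusted p = 0.0038, in the fit on the 8 libraries 0.070), and without HSA/d5 replicate 2 its log2 fold change was -0.99, just short of the threshold. Endoglin (ENG), a TGF-beta co-receptor of endothelial and stromal cells, read 133, 164, 39.5 and 119.7 CPM in HSA/d5 and 42.1, 47, 32 and 48.1 CPM in HSA + SB/d5 (log2 fold change -1.43, adjusted p = 0.0049, in the fit on the 8 libraries 0.087). HSA/d5 replicate 3 was the only control library inside the range of the treated ones. The type I receptor TGFBR1, one of the drug's targets, was lower by little but in every library, at 168, 173, 138 and 144 CPM against 123, 123, 109.7 and 119 CPM (log2 fold change -0.39, adjusted p = 0.0054). The type II receptor TGFBR2 had a log2 fold change of -0.05. The signal carriers SMAD2 and SMAD3 had log2 fold changes of -0.05 and 0.09, and SMAD4 one of -0.17 with an adjusted p just under the threshold (0.0499).

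The feedback inhibitors SKIL, PMEPA1 and SMAD7 fell steeply in every replicate. In the list of feedback genes and direct targets, 8 of 28 tested genes (of 30 listed) fell and 1 rose past both thresholds, with a median log2 fold change of -0.77. In the fit on the 8 libraries 4 fell and 1 rose. SKIL, a corepressor that binds SMADs, held 95.2, 90.7, 72.2 and 93.9 CPM in HSA/d5 and 19.8, 18, 19 and 24.2 CPM in HSA + SB/d5. The groups were far apart and each was tight, a 4.34-fold lower level with the inhibitor (log2 fold change -2.12, SE 0.12, adjusted p = 4.3e-10 by edgeR). PMEPA1, a membrane protein that keeps SMAD2 and SMAD3 from the receptor, held 459.9, 492, 248 and 476 CPM in HSA/d5 and 57.8, 49, 49.5 and 63.1 CPM in HSA + SB/d5. HSA/d5 replicate 3 stood near the middle between both groups but still well above each treated library (7.64-fold lower with the inhibitor, log2 fold change -2.93, SE 0.19, adjusted p = 9.7e-09). SMAD7, the inhibitory SMAD that blocks the type I receptor, held 22.2, 18.9, 9.66 and 16.8 CPM and 3.37, 2.25, 1.72 and 2.53 CPM in the same order. No treated library reached the lowest control library, again replicate 3 (6.79-fold lower, log2 fold change -2.76, SE 0.30, adjusted p = 9.0e-06). BAMBI, a decoy receptor, had a log2 fold change of -0.72 with an adjusted p of 0.042, below the fold threshold. SKI, a corepressor related to SKIL, had a log2 fold change of -0.04 (adjusted p = 0.8).

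**Figure D1:**
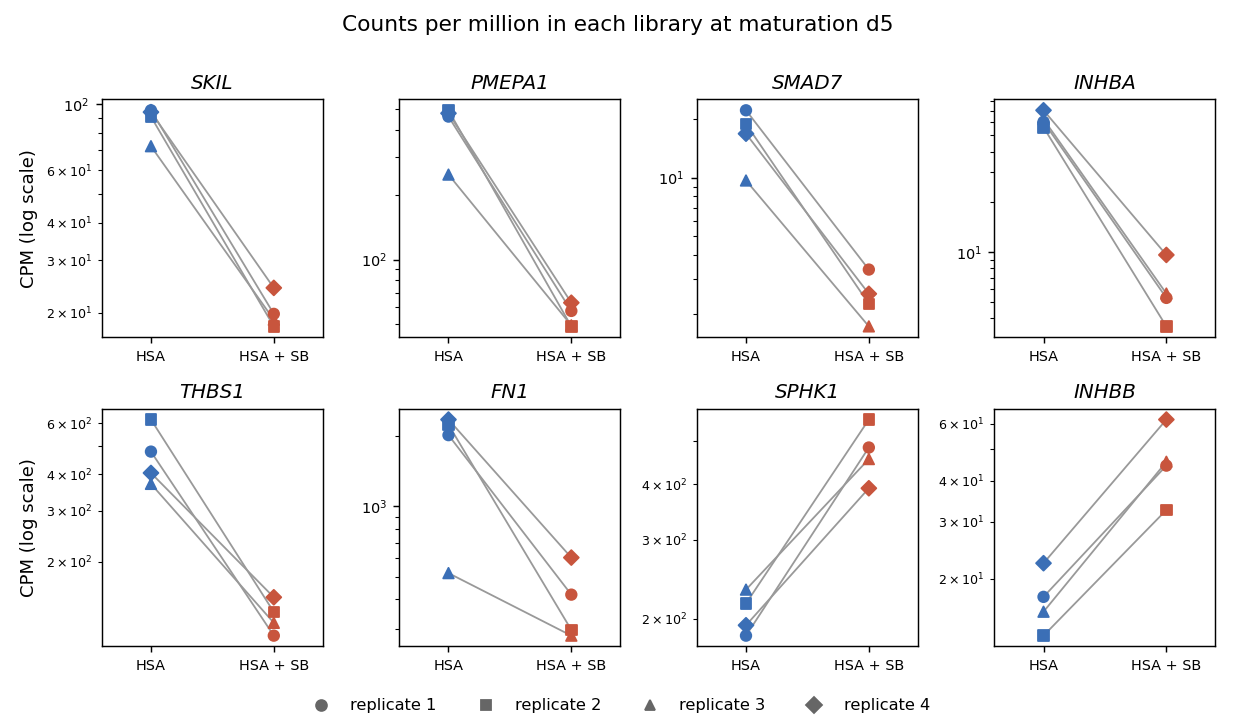
Level in CPM (log scale) of genes of the TGF-beta pathway and its targets in each of the 4 HSA/d5 and 4 HSA + SB/d5 libraries, with 1 point per library and a line between the libraries of the same replicate number. INHBA, PMEPA1, SKIL and SMAD7 were lower with SB431542 in every pair, and SPHK1 was higher in every pair.

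Other targets of the pathway differed from gene to gene. THBS1, thrombospondin 1, which activates latent TGF-beta, stood at 479.6, 619, 371 and 405 CPM in HSA/d5 and 111, 134, 123 and 150.5 CPM in HSA + SB/d5. Each control library was far above each treated one (log2 fold change -1.86, SE 0.18, adjusted p = 2.3e-06 by edgeR). SNAI1, a repressor of epithelial genes, read 13.7, 15.5, 4.81 and 13.3 CPM without and 4.32, 4.09, 4 and 5.21 CPM with the inhibitor. The 4 treated libraries lay close together and only HSA/d5 replicate 3 was down at their level (log2 fold change -1.42, adjusted p = 0.0029, in the fit on the 8 libraries 0.064). SNAI2, its relative, did not follow, with a log2 fold change of 0.69 and an adjusted p of 0.14.

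The gene of that list that rose past both thresholds was SPHK1, the kinase that makes sphingosine 1-phosphate, at 183, 216, 232 and 194 CPM in HSA/d5 and 483, 557, 455 and 391 CPM in HSA + SB/d5. Every treated library was above every control library (log2 fold change 1.19, SE 0.10, adjusted p = 9.0e-07 by edgeR). MYC, a growth regulator that TGF-beta represses in epithelial cells, read 34.1, 32.2, 45.7 and 34 CPM without and 56.9, 52.3, 48.7 and 56.9 CPM with the inhibitor. All treated libraries were higher, although HSA/d5 replicate 3 came close, and the log2 fold change of 0.56 had an adjusted p of 0.014, below the fold threshold. CCN2, connective tissue growth factor, had a log2 fold change of -0.49 (adjusted p = 0.019). TGFBI, a matrix protein named for its induction by TGF-beta, read 131, 79.6, 60.5 and 119 CPM and 42.6, 47.8, 66.7 and 76.1 CPM in the same order. Replicates 1, 2 and 4 were lower with the inhibitor than without it and the test gave a log2 fold change of -0.74 with an adjusted p of 0.15 (0.015 with the block). The cell cycle inhibitor CDKN2A had only 15 reads in the 24 libraries and was not tested.

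Most genes of the BMP arm of the family, whose receptors SB431542 spares, had small log2 fold changes. Of 18 tested genes (of 20 listed) 1 fell past both thresholds and none rose, with a median log2 fold change of -0.16. By adjusted p alone 4 fell and none rose, beside falls in 3.79% of all genes tested. For 4 genes all HSA + SB/d5 libraries lay below all HSA/d5 libraries, beside 5.77% of all genes tested. The gene that fell past both thresholds was BMPR1B, a BMP type I receptor. It read 9.97, 8.18, 4.99 and 13.2 CPM in HSA/d5 and 1.44, 0.818, 2.33 and 4.83 CPM in HSA + SB/d5. The groups came close, since HSA/d5 replicate 3 was only just above HSA + SB/d5 replicate 4 (log2 fold change -1.94, SE 0.52, edgeR adjusted p = 0.027, in the fit on the 8 libraries 0.089). Its call was lost when 1 library was left out in 5 of 8 cases (HSA/d5 replicates 1 and 4 and HSA + SB/d5 replicates 1, 2 and 3), with adjusted p values of 0.059 to 0.099. BMP4, a BMP ligand, had a log2 fold change of -0.90 (adjusted p = 0.0032), which became -1.03 (adjusted p = 8.2e-04) and passed both thresholds without HSA/d5 replicate 3. The BMP type II receptor BMPR2 and the type I receptor ACVR1 had small falls by adjusted p alone, with log2 fold changes of -0.35 (adjusted p = 2.4e-04) and -0.34 (adjusted p = 0.021).

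Most extracellular matrix genes were lower with the inhibitor, with a wide range from gene to gene. Of 46 tested genes (of 49 listed) 10 fell past both thresholds and none rose, 41 had a negative log2 fold change and the median was -0.65. In the fit on the 8 libraries 4 fell. COL8A1, a chain of the short network collagen VIII, stood at 29.2, 46.6, 7.68 and 54.1 CPM in HSA/d5 and 0.946, 0.307, 0.559 and 2.1 CPM in HSA + SB/d5. Treated libraries held almost none and HSA/d5 replicate 3, the lowest control, was still above them all (log2 fold change -5.12, SE 0.65, adjusted p = 5.0e-05 by edgeR). Its partner chain COL8A2, which is not in the list, had a log2 fold change of -5.29 (adjusted p = 2.5e-04). Fibronectin (FN1), which links cells to collagen, read 2019.6, 2237, 518 and 2354 CPM without and 419, 296, 279.7 and 604 CPM with the inhibitor. HSA/d5 replicate 3 was the only control library inside the range of the treated ones (log2 fold change -2.16, SE 0.36, adjusted p = 7.5e-04, in the fit on the 8 libraries 0.055). Tenascin C (TNC), a matrix protein of tissue remodelling, read 225, 124, 176 and 356 CPM without and 23.5, 15.8, 47.1 and 43.8 CPM with the inhibitor. No treated library reached the lowest control library (log2 fold change -2.76, SE 0.46, adjusted p = 7.5e-04).

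The other genes of the list past both thresholds were the collagens COL11A1 (log2 fold change -1.78) and COL5A1 (-1.29), the collagen cross-linking oxidases LOXL1 (-2.37), LOXL2 (-1.25) and LOX (-1.16), the proteoglycans versican, VCAN (-1.46), and lumican, LUM (-2.06), with edgeR adjusted p values of 0.0038, 0.0062, 0.0019, 5.8e-04, 0.037, 0.0081 and 0.031 in that order. In the fit on the 8 libraries the calls of COL5A1 (adjusted p = 0.104), LOXL1 (0.063), VCAN (0.0504), LOX (0.183) and LUM (0.157) were lost. The call of LOX was also lost when 1 library was left out in 6 of 8 cases, all but HSA/d5 replicate 3 and HSA + SB/d5 replicate 4, with adjusted p values of 0.055 to 0.17. That of LUM was lost without HSA/d5 replicate 1 or 2 or HSA + SB/d5 replicate 1, 3 or 4, with adjusted p values of 0.061 to 0.113. Fibrillar collagens with high read counts depended on HSA/d5 replicate 3. COL1A1, a chain of collagen I, read 1312, 1518, 202 and 1862 CPM in HSA/d5 and 473, 615, 318 and 792 CPM in HSA + SB/d5. Control replicate 3 lay below every treated library and the other control libraries lay above every treated one. The log2 fold change was -1.16 with an adjusted p of 0.11. For this gene the block gave -1.08 and 0.033, and leaving out HSA/d5 replicate 3 gave -1.51 and 0.0028. COL3A1, collagen III, had -0.98 and an adjusted p of 0.16, against -1.33 and 0.0071 without that library. Periostin (POSTN), a matrix protein that binds collagen, read 130.4, 239, 24.1 and 184 CPM and 55.9, 48.6, 31.2 and 69.1 CPM in the same order. Replicate 3 alone was higher with the inhibitor than without it. The log2 fold change was -1.49 with an adjusted p of 0.064, and it passed both thresholds with the block (-1.30, adjusted p = 0.0041) and without HSA/d5 replicate 3 (-1.85, adjusted p = 0.0043). With the block on the 8 libraries alone, neither COL1A1 nor POSTN passed both thresholds.

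The summed level of the 46 matrix genes was 21003, 22113, 9552 and 24674 CPM in HSA/d5 and 12214, 12438, 9825 and 15360.0 CPM in HSA + SB/d5. Replicates 1, 2 and 4 were lower with the inhibitor, whereas in replicate 3 both libraries were low. With the block, 16 matrix genes fell past both thresholds in place of 10, and without HSA/d5 replicate 3, 18 did. The matrix genes given here from outside the list were picked by the size of their fall or after their values were seen. Their direction therefore follows from the choice. The collagen chain COL16A1, thrombospondin 2 (THBS2) and the microfibril protein MFAP2 fell past both thresholds. So did the cartilage matrix protein CILP and the collagen uptake receptor MRC2. THBS2 read 121, 280.5, 25.8 and 174 CPM in HSA/d5 and 7.36, 11.6, 8.06 and 21.2 CPM in HSA + SB/d5, a log2 fold change of -3.64 (edgeR adjusted p = 0.0017). COL16A1 had -2.16 (2.8e-06), MFAP2 -3.81 (1.9e-04), CILP -4.27 (5.4e-04) and MRC2 -3.24 (4.0e-04).

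Most genes of cell adhesion and of the epithelial or mesenchymal state were lower with the inhibitor, 18 of 21 tested by the sign of the log2 fold change. Over all genes tested, 7271 of 14842 were lower by sign. Of these 21 (of 23 listed) 2 fell past both thresholds and none rose, with a median log2 fold change of -0.27, and both calls were lost in the fit on the 8 libraries. By adjusted p alone 3 fell and none rose, beside falls in 3.79% and rises in 3.34% of all genes tested. With the block 12 fell and 2 rose by adjusted p alone, beside 12.5% of all genes tested in each direction. The genes past both thresholds were integrin alpha chains that bind collagen with integrin beta 1. ITGA1 stood at 30.0, 22.1, 13.5 and 21.9 CPM in HSA/d5 and 8.14, 6.24, 8.47 and 13.3 CPM in HSA + SB/d5 (log2 fold change -1.27, SE 0.23, adjusted p = 0.0014 by edgeR, in the fit on the 8 libraries 0.059). ITGA11 stood at 26.7, 17.1, 2.6 and 37.5 CPM and 3.74, 3.53, 2.28 and 4.68 CPM in the same order (log2 fold change -2.55, adjusted p = 0.01, in the fit on the 8 libraries 0.087). Control replicate 3 was again low, inside the range of the treated libraries for ITGA11 and just above it for ITGA1. ITGAV, the alpha chain of integrins that activate latent TGF-beta, fell by adjusted p alone (log2 fold change -0.63, adjusted p = 4.6e-05), and the shared beta chain ITGB1 had -0.27 (0.067). N-cadherin (CDH2), a cell contact protein of islet and mesenchymal cells, had a log2 fold change of -0.93 with an adjusted p of 0.24, and with the block the adjusted p was 3.4e-06. Without HSA/d5 replicate 4 its log2 fold change was -0.47.

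**Figure D2:**
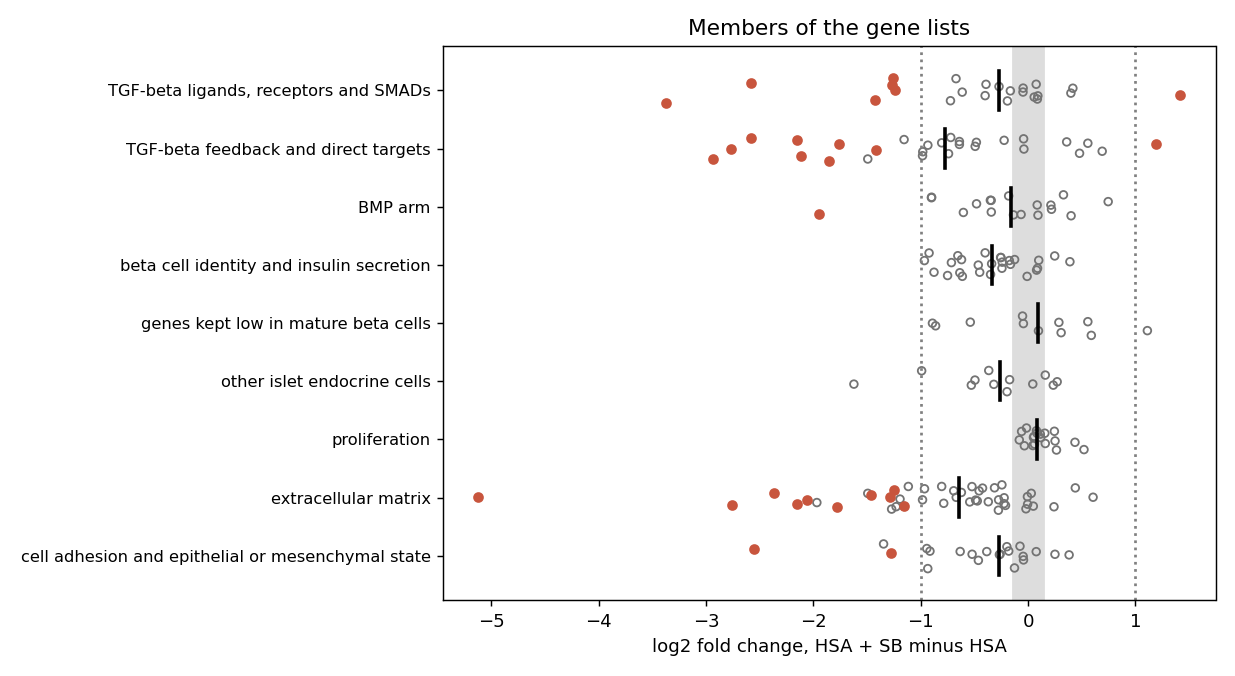
Log2 fold change of HSA + SB/d5 over HSA/d5 for each tested gene of the 9 gene lists, with 1 point per gene and a bar at each list's median. The medians of the matrix list and of the list of feedback genes and targets lie lowest, at -0.65 and -0.77.

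No gene of beta cell identity or insulin secretion passed both thresholds, although most were lower with the inhibitor. Of 27 tested genes (of 32 listed) 22 had a negative log2 fold change, against 7271 of the 14842 genes tested, and the median was -0.34. By adjusted p alone 1 fell and none rose. With the block, 10 fell and 1 rose by adjusted p alone, beside 12.5% of all genes tested in each direction. Still none passed both thresholds. Insulin (INS) read 1447, 413, 2684 and 5651 CPM in HSA/d5 and 1562, 997, 3024 and 4548 CPM in HSA + SB/d5. It differed more between replicates than between groups, with replicate 2 lowest and replicate 4 highest in both (log2 fold change -0.01, SE 0.79). NEUROD1, a transcription factor of endocrine cells and activator of the insulin gene, read 105, 83.5, 108 and 143 CPM and 57.1, 49.7, 82.4 and 89.8 CPM in the same order. Each treated library was below the control library of its number, but the groups overlapped (log2 fold change -0.65, edgeR adjusted p = 0.28, with the block -0.68 and 0.013).

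Several genes for hormone release were also lower in each replicate, without passing the test that has no block. CHGB, a protein of secretory granules, read 1317, 1351, 1287 and 2498 CPM in HSA/d5 and 699, 699.7, 789 and 1117 CPM in HSA + SB/d5. The groups did not overlap and HSA/d5 replicate 4 stood far above the other controls (log2 fold change -0.97, edgeR adjusted p = 0.13, with the block 0.0073). PCSK1, the convertase that cleaves proinsulin, read 795, 653, 842 and 1578 CPM and 458, 355, 709 and 968 CPM in the same order (log2 fold change -0.64, adjusted p = 0.45, with the block 0.0035). ABCC8, the sulfonylurea receptor of the beta cell potassium channel, read 232, 157, 232 and 412 CPM and 106, 77.8, 215 and 215 CPM (log2 fold change -0.75, adjusted p = 0.45, with the block 0.013). For both genes HSA/d5 replicate 4 was the highest of the 8 libraries, and each treated library was below the control library of its number. The calcium sensing receptor CASR had a log2 fold change of -0.61 (adjusted p = 0.23, with the block 0.024), and the islet glucose-6-phosphatase G6PC2 one of -0.88 (adjusted p = 0.63). G6PC2 read 13.9, 5.58, 5.78 and 34.7 CPM in HSA/d5 and 4.44, 1.53, 12.4 and 14.2 CPM in HSA + SB/d5, higher with the inhibitor in replicate 3. Without HSA/d5 replicate 4 the log2 fold changes were -0.05 for G6PC2, -0.29 for PCSK1 and -0.43 for ABCC8. The gene lower by adjusted p alone was GIPR, the receptor for the gut hormone GIP, at 6.05, 4.25, 3.44 and 7.02 CPM in HSA/d5 and 2.84, 2.56, 2 and 3.54 CPM in HSA + SB/d5 (log2 fold change -0.92, adjusted p = 0.015). It passed both thresholds without HSA/d5 replicate 2 (-1.01, adjusted p = 0.018), without HSA/d5 replicate 3 (-1.08, 0.0043) and without HSA + SB/d5 replicate 4 (-1.07, 0.010). PRLR, the prolactin receptor, had a log2 fold change of 0.08.

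Genes that mature beta cells keep low did not move as a group. Of 11 tested genes (of 13 listed) none passed both thresholds, and the median log2 fold change was 0.10. NEUROG3, which starts the endocrine programme in the developing pancreas, read 5.6, 6.14, 5.34 and 4 CPM in HSA/d5 and 7.32, 8.64, 8.89 and 6.88 CPM in HSA + SB/d5. All treated libraries lay above all control libraries, with a log2 fold change of 0.59 and an edgeR adjusted p of 0.17. Hexokinase 1 (HK1), a glucose kinase of most tissues, had a log2 fold change of 0.31 (adjusted p = 0.15). IGFBP4, a binding protein for insulin-like growth factors, had -0.86 (adjusted p = 0.13), and passed both thresholds without HSA/d5 replicate 3 (-1.17, adjusted p = 0.0057).

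Hormones of the other islet cells were mostly lower without passing the test. None of the 12 tested genes (of 14 listed) passed both thresholds, and the median log2 fold change was -0.26. Glucagon (GCG) read 24320.0, 14725, 15711 and 23049 CPM in HSA/d5 and 14937, 11496, 16949.8 and 18985 CPM in HSA + SB/d5 (log2 fold change -0.32, edgeR adjusted p = 0.74, and -0.19 without HSA/d5 replicate 1). Somatostatin (SST) read 2831, 2909, 2547 and 2172 CPM and 1722, 1839.8, 2206 and 1654 CPM in the same order (log2 fold change -0.50, adjusted p = 0.18, with the block 0.026). Pancreatic polypeptide (PPY) read 1272, 404, 728 and 1035 CPM and 544, 204, 481 and 501 CPM (log2 fold change -0.99, adjusted p = 0.21, with the block 4.0e-04). SST and PPY were lower with the inhibitor in each number, with overlap between the groups. LOXL4, a lysyl oxidase expressed in alpha cells, read 45.4, 119.7, 62.8 and 40.8 CPM in HSA/d5 and 19.7, 39.1, 14.2 and 14.5 CPM in HSA + SB/d5. The groups did not overlap and the adjusted p of 0.0504 just missed the threshold (log2 fold change -1.62), while with the block the gene fell past both thresholds (-1.63, adjusted p = 2.3e-06). So it did without HSA/d5 replicate 4 (adjusted p = 0.0495) and without HSA + SB/d5 replicate 2 (adjusted p = 0.031). The leptin receptor LEPR had a log2 fold change of -0.53 (adjusted p = 0.36).

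Proliferation genes moved little. None of the 19 tested genes (of 25 listed) passed both thresholds, 15 had a positive log2 fold change and the median was 0.08. Cyclin D1 (CCND1), which drives entry into the cell cycle, read 75.6, 76, 103 and 94.2 CPM in HSA/d5 and 128, 119, 120.2 and 133 CPM in HSA + SB/d5. All treated libraries were above all control libraries and the gene rose by adjusted p alone (log2 fold change 0.52, edgeR adjusted p = 0.03). Its relative CCND2 had 0.44 (adjusted p = 0.08). Genes of DNA synthesis and mitosis had smaller values: log2 fold changes were -0.06 for the mitotic kinase CDK1, 0.08 for its transcription factor FOXM1, 0.25 for the centromere histone CENPA, 0.16 for the DNA topoisomerase TOP2A, 0.24 for the spindle motor KIF11 and 0.26 for thymidylate synthase. The lowest adjusted p among these 6 genes was 0.19, for thymidylate synthase (TYMS).

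The largest fall of all was in a gene with no symbol, and the calgranulin S100A12 came next among genes with a mean of at least 2 CPM in the higher group. The gene ENSSSCG00000011596, with no symbol in the reference table, read 589.6, 420.5, 105 and 123 CPM in HSA/d5 and 3.29, 2.51, 1.58 and 4.11 CPM in HSA + SB/d5 (log2 fold change -6.75, SE 0.70, adjusted p = 4.4e-06 by edgeR). Even its lowest control library stood far above the treated ones. The calgranulins S100A12 and S100A8, calcium-binding proteins of myeloid cells and inflamed epithelium, fell together. S100A12 read 15.7, 16.6, 10.2 and 2 CPM and 0.452, 0, 0.186 and 0.0478 CPM in the same order (log2 fold change -5.89, adjusted p = 2.5e-04). S100A8 read 4.33, 5.91, 5.43 and 0.871 CPM and 0.288, 0.153, 0.186 and 0 CPM (log2 fold change -4.64, adjusted p = 8.8e-04). For both genes all control libraries lay above all treated ones. MS4A7, a membrane protein of macrophages, had a log2 fold change of -4.04 (adjusted p = 0.0012).

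Among genes picked after their values were seen, several of signalling and tissue remodelling fell. WNT5A, a Wnt ligand, read 97.1, 50.8, 49 and 39.6 CPM in HSA/d5 and 8.06, 5.06, 4.94 and 6.26 CPM in HSA + SB/d5 (log2 fold change -3.28, SE 0.32, adjusted p = 2.3e-06 by edgeR). IL11, a cytokine that TGF-beta induces in stromal cells, read 125, 127, 101 and 157 CPM and 21.3, 19.7, 12.9 and 23.2 CPM in the same order (log2 fold change -2.73, adjusted p = 3.3e-06). PTGS2, the inducible enzyme of prostaglandin synthesis, read 41, 34.7, 158 and 11.7 CPM and 10.0, 2.91, 4.56 and 3.82 CPM (log2 fold change -3.51, adjusted p = 0.0038, in the fit on the 8 libraries 0.063). These 3 genes were lower with the inhibitor in each number. The chemokine CXCL14 had a log2 fold change of -3.50 (adjusted p = 0.0032), the urokinase receptor PLAUR -1.15 (7.6e-06), the matrix protease MMP7 -1.47 (0.0018) and endothelin 1, EDN1, -1.51 (4.1e-05). The neutrophil chemokine CXCL8 read 131, 83.5, 503 and 54.1 CPM in HSA/d5 and 53.8, 59.7, 66.8 and 46 CPM in HSA + SB/d5. Its fall (log2 fold change -1.77, adjusted p = 0.03, in the fit on the 8 libraries 0.181) rested on HSA/d5 replicate 3, the highest library, without which it was -0.66 (adjusted p = 0.24), and the call was also lost without any 1 of the HSA + SB/d5 libraries, with adjusted p values of 0.057 to 0.086.

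Among genes with a symbol, a mean of at least 2 CPM in the higher group and no overlap between groups, the 8 largest rises were in genes of varied roles. SEMA5B, a guidance protein of the semaphorin family, read 0.181, 0.236, 0.0883 and 0.0512 CPM in HSA/d5 and 6.21, 1.84, 3.59 and 3.39 CPM in HSA + SB/d5 (log2 fold change 4.69, SE 0.75, adjusted p = 4.6e-04 by edgeR). CCL19, a chemokine that draws lymphocytes and dendritic cells, read 0.0903, 0.331, 0.0883 and 0.615 CPM and 6, 6.03, 3.26 and 3.25 CPM in the same order (log2 fold change 4.05, adjusted p = 1.7e-04). SFTPB, a surfactant protein best known from lung, read 0.316, 0.425, 0.309 and 0.154 CPM and 4.61, 3.27, 3.77 and 2.91 CPM (log2 fold change 3.56, adjusted p = 2.3e-06). For these 3 genes every treated library was higher than the control library of its number. The other 5 were the galectin LGALS13 (log2 fold change 3.44), the butyrophilin-like gene BTNL9 (3.16), afamin, AFM (3.06), the prion-like gene PRND (2.99) and the small GTPase RAB7B (2.76), with adjusted p values of 3.0e-05, 0.001, 0.0065, 0.0031 and 4.4e-05 in that order. Among genes with more reads, carbonic anhydrase 2 (CA2) read 27.3, 28.7, 40.2 and 28.2 CPM without and 76.4, 75.9, 68.1 and 67.7 CPM with the inhibitor, with no overlap (log2 fold change 1.21, SE 0.12, adjusted p = 3.6e-06). PHGDH, which starts serine synthesis, read 72.1, 88.3, 56.4 and 57.9 CPM and 174, 178, 136 and 116 CPM in the same order (log2 fold change 1.14, adjusted p = 1.5e-04). Lipoprotein lipase (LPL) had a log2 fold change of 1.86 (0.0086, in the fit on the 8 libraries 0.058), the invariant chain of antigen presentation, CD74, 1.53 (0.0032), and EBF1, a transcription factor of B cells and adipose tissue, 2.09 (8.6e-04).

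Markers of other cell types moved with these changes in part. Of 6 endothelial markers tested (of 9 listed), all had a positive log2 fold change, against 7571 of the 14842 genes tested. Past both thresholds 1 of them rose, beside 0.916% of all genes tested. Their summed level was 394, 297, 339 and 491 CPM in HSA/d5 and 656, 438, 640.2 and 939 CPM in HSA + SB/d5. Each treated library was above the control library of its number, with overlap between the groups. PECAM1, an endothelial contact protein, was the most abundant, and EGFL7 had no read in these libraries. KDR, the main VEGF receptor, read 56.8, 43.9, 54.4 and 51.1 CPM without and 114, 69.4, 113 and 128 CPM with the inhibitor (log2 fold change 1.04, edgeR adjusted p = 0.0028). Its fold came just under the threshold without HSA/d5 replicate 2 (log2 fold change 0.97) and without HSA + SB/d5 replicate 4 (0.94). PECAM1 had a log2 fold change of 0.89 (adjusted p = 0.098, with the block 9.6e-06) and VE-cadherin, CDH5, one of 0.72 (adjusted p = 0.28, with the block 2.6e-04; 0.46 without HSA + SB/d5 replicate 4). Outside the list, GPIHBP1, which carries lipoprotein lipase on capillary endothelium, and PEAR1, an endothelial and platelet receptor, rose with log2 fold changes of 1.29 (adjusted p = 2.0e-04) and 1.87 (0.0017). Both were picked after their values were seen. ENG, described above as a co-receptor of endothelial and stromal cells, went the other way and fell past both thresholds. Endothelin 1 (EDN1) also fell past both, as given above.

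Markers of mesenchymal, stellate and pericyte cells were mostly lower with the inhibitor by fold change, while their summed level overlapped between groups. Of 13 tested (of 14 listed) 10 had a negative log2 fold change, the median was -0.37 and 1 fell past both thresholds (2 with the block). The marker that fell was LUM, also a matrix gene, at 225, 188, 24.9 and 66.4 CPM in HSA/d5 and 30.9, 51.8, 11.8 and 26.9 CPM in HSA + SB/d5 (log2 fold change -2.06, edgeR adjusted p = 0.031). Its call was lost in the fit on the 8 libraries (0.157) and without any 1 of 5 libraries, as given with the matrix genes (0.113 without HSA/d5 replicate 1). The sum of the 13 was 1026, 1003, 446 and 1134 CPM in HSA/d5 and 875, 879.6, 755 and 1228 CPM in HSA + SB/d5. HSA/d5 replicate 3 had by far the lowest sum and the other libraries overlapped. The most abundant was PDGFRB, the platelet-derived growth factor receptor of pericytes, at 291, 288, 79.5 and 297 CPM and 387, 429, 301 and 428 CPM (log2 fold change 0.69, edgeR adjusted p = 0.16, and 0.40 without HSA/d5 replicate 3). All treated libraries lay above all control libraries for this gene, and none of the 13 markers was at 0. Acinar markers summed to 11883, 4816, 2858 and 942 CPM in HSA/d5 and 12898, 8374, 9052 and 2616 CPM in HSA + SB/d5, higher with the inhibitor in each number and ever lower from replicate 1 to replicate 4 of the controls. None of 7 tested (of 14 listed) passed both thresholds, while 3 rose past both with the block. The most abundant, the lipase CEL, had 0.92 (adjusted p = 0.58) and passed both with the block (1.23, adjusted p = 0.0015), as did colipase, CLPS (1.04, adjusted p = 0.33; with the block 1.17 and 3.1e-04). Leaving out 1 library gave log2 fold changes of 0.56 (HSA/d5 replicate 4) to 1.83 (HSA/d5 replicate 1) for CEL and of up to 1.61 (HSA/d5 replicate 1) for CLPS.

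Duct markers summed to 4608, 6377, 8053 and 4667 CPM in HSA/d5 and 5449, 6526, 5879 and 5465 CPM in HSA + SB/d5, with SPP1 the most abundant. Of 7 tested (of 9 listed) 1 rose past both thresholds, the water channel AQP1, at 14.1, 14.1, 10.1 and 25 CPM and 37.5, 34.7, 42.1 and 52.6 CPM (log2 fold change 1.4, edgeR adjusted p = 0.011), which capillary endothelium also expresses. Immune markers came to 55.6, 47.8, 47 and 25.4 CPM and 60.2, 65.6, 40.3 and 35.2 CPM in sum, with CD68 the most abundant, CD3E at 0 and none of 8 tested (of 9 listed) past both thresholds. Schwann and neural markers summed to 561, 473, 627 and 1916 CPM and 395, 389, 464 and 1501 CPM, with none of 6 tested (of 7 listed) past both thresholds. Replicate 4 was far above the others in both groups for that sum, and each treated library was below the control library of its number. The part of these marker genes in the changes of the other genes was not tested. Markers of the endocrine cells themselves were present in all 8 libraries, with sums of 24686, 15020.4, 15903 and 23289 CPM in HSA/d5 and 15281, 11867, 17224 and 19236 CPM in HSA + SB/d5 for the 4 alpha cell markers, led by GCG. The ghrelin gene, the marker of epsilon cells, had too few reads to test.

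**Figure D3:**
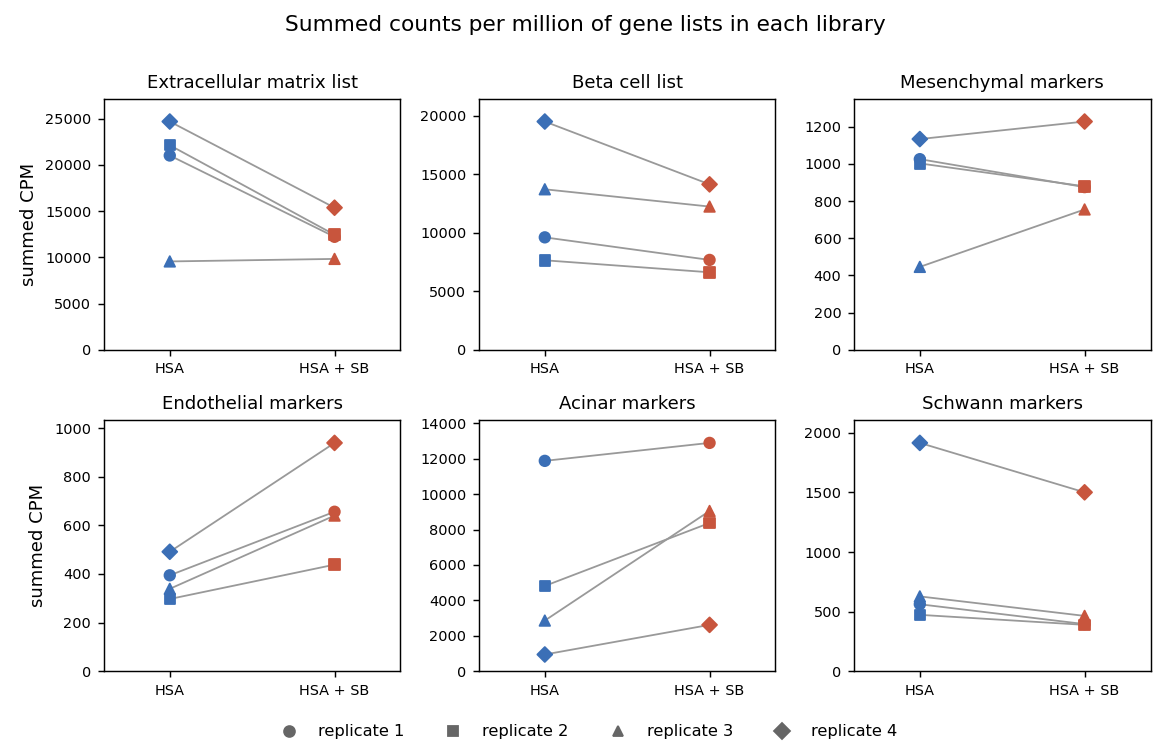
Summed level in CPM of marker lists and of the matrix genes in each of the 4 HSA/d5 and 4 HSA + SB/d5 libraries, with 1 point per library and a line between libraries of the same replicate number. Endothelial and acinar sums were higher with SB431542 in every pair, and HSA/d5 replicate 3 had the lowest mesenchymal sum.

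The same inhibitor was also added to NICCs that received a further additive, which the labels call LDN without saying what it is, in 4 libraries (HSA + SB + LDN/d5) set against 4 with HSA and LDN only (HSA + LDN/d5). None of these libraries is among the 8 compared above. By their library numbers they share the same 4 replicate numbers, so they cannot be taken as a repeat in other islet preparations. Genes moved the same way there, by less. All 136 genes that rose and 222 of the 223 that fell had the same sign in the LDN libraries, against 78.4% of all genes tested, with medians of 1.17 and -1.27 in place of 1.61 and -1.78. Their log2 fold change there reached at least 0.5 of its size without LDN for 122 of the 136 and 200 of the 223. Since the genes were chosen by their size without LDN, a smaller size elsewhere follows in part from the choice. By the edgeR test in the LDN libraries themselves, 87 genes fell (0.586%) and 36 rose (0.243%) past both thresholds, and 80 of the 223 and 36 of the 136 were among them. With the replicate block 203 genes fell (1.37%) and 182 rose (1.23%) there, among them 140 of the 223 and 87 of the 136.

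The list of feedback genes and direct targets had nearly as many falls in the LDN libraries. The ligand, receptor and SMAD list and the BMP, matrix and adhesion lists had fewer. The remaining gene lists had no fall in either comparison, and differences between lists were not tested. In that list 7 genes fell past both thresholds beside 8 without LDN, and none rose beside 1. SKIL went from a mean of 76.4 CPM (SD 11.4, n = 4) with LDN to 27.3 CPM (SD 2.46, n = 4) with SB431542 and LDN, a log2 fold change of -1.48 by edgeR (adjusted p = 2.5e-07) beside -2.12 without LDN. INHBA had -2.66 (adjusted p = 8.3e-07) beside -3.37. PMEPA1 had -2.23 (8.3e-07) beside -2.93, and SMAD7 -2.38 (1.4e-04) beside -2.76. SPHK1, which had risen by 1.19, had 0.63 (0.0024) with LDN, below the fold threshold. Of the ligands, receptors and SMADs 1 gene fell and none rose past both thresholds with LDN, beside 6 and 1 without it, and FST had -0.46 (0.41) beside -1.26. Of the matrix list 4 genes fell beside 10, with a median of -0.61 beside -0.65, and of the adhesion list 0 fell beside 2. The test of the difference between both effects of SB431542 found 0 of 14842 genes at an adjusted p below 0.05 in edgeR and 0 in DESeq2, with 174 and 186 genes below an unadjusted p of 0.05. Among the genes that had passed both thresholds without LDN, 10 of 136 and 15 of 223 were below that unadjusted p in edgeR. With the replicate block, edgeR again found 0 genes at an adjusted p below 0.05, and 580 genes were below the unadjusted p, 27 of the 136 and 45 of the 223 among them.

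**Figure D4:**
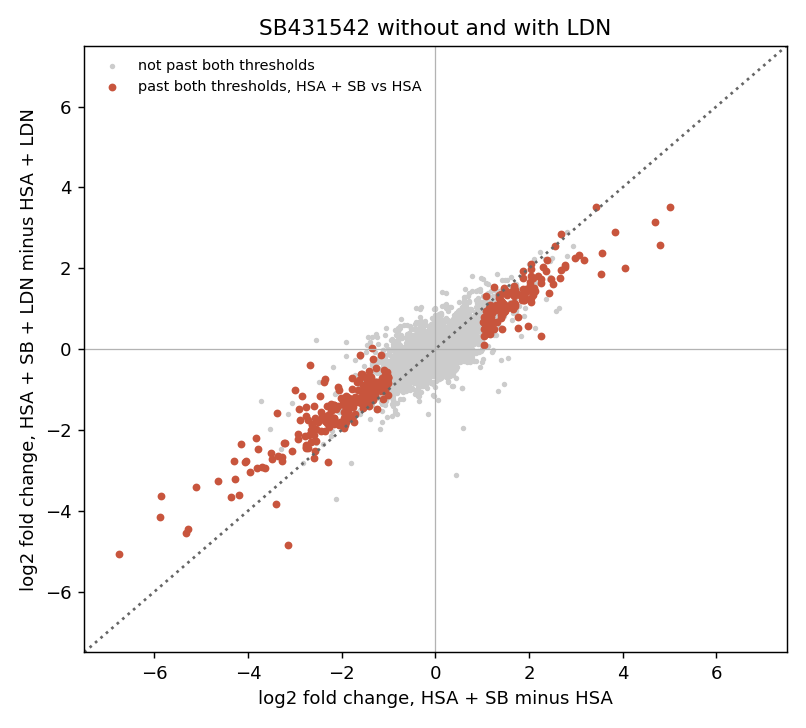
Log2 fold change of SB431542 in the presence of LDN (vertical axis) against that without LDN (horizontal axis), with 1 point per gene. Of the 136 genes that rose and 223 that fell past both thresholds without LDN, all but 1 have the same sign on both axes.

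The level at maturation d1 can be set beside those at d5. HSA/d1 libraries, all with HSA alone, had a mean of 85.1 CPM of SKIL (SD 6.24, n = 4), beside 88 CPM (SD 10.7) in HSA/d5 and 20.2 CPM (SD 2.75) in HSA + SB/d5. PMEPA1 had means of 405, 419 and 54.8 CPM in that order, and INHBA 63.5, 62.4 and 6.03 CPM. Of the 6 matrix genes given here, all with a lower mean with the inhibitor than at d1 or in HSA/d5, some were highest at d5 and some at d1. FN1 read 1136, 1782 and 399.7 CPM and COL8A1 9.93, 34.4 and 0.978 CPM in that order, with HSA/d5 the highest. TNC read 654, 220.2 and 32.5 CPM, COL1A1 2269.9, 1223 and 549 CPM, COL3A1 2635, 1637 and 828 CPM and POSTN 252, 144 and 51.2 CPM, with HSA/d1 the highest. SPHK1 read 387, 206 and 471 CPM, and NEUROD1 26.8, 109.8 and 69.7 CPM. The HSA/d5 libraries are shared by both comparisons, d5 with d1 and with the inhibitor, so the means stand side by side only.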

How the data were processed

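Read counts per gene were deposited by the authors for 24 strand-specific, poly-A selected RNA sequencing libraries. The submitters' processing notes name FastQC 0.11.8, Trim Galore 0.5, STAR 2.6.1, Picard, featureCounts 1.6.2 and DESeq2 1.22.1. The genome build and annotation are not given in the sources used here. For 4 of the 8 libraries compared the labels list 2 sequencing runs, the table holds 1 column for each library, and how runs were joined is not stated. A reference table gave symbols for 14857 of 25880 identifiers, and for 12522 of the 14842 genes tested.

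CPM and log2 values were computed here with edgeR 4.0.16 in R 4.3.3. All 24 libraries were scaled by the trimmed mean of M-values, genes were kept by filterByExpr, and 1 model with a coefficient for each of the 6 groups was fitted by the quasi-likelihood method. HSA + SB/d5 was tested against HSA/d5, HSA + SB + LDN/d5 against HSA + LDN/d5, and the difference of these effects was tested too. Benjamini-Hochberg adjustment covered all 14842 genes. The steps were tested on simulated data.

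Replicate numbers come from the order of the library numbers in the titles, and the data were checked for them. After removal of group means, HSA/d5 and HSA + SB/d5 libraries of the same number correlated at 0.433 to 0.721 and those of different numbers at -0.483 to 0.22. In the LDN libraries the same-number correlations were 0.636 to 0.721. Replicates trace to 4 islet preparations, to which the labels assign no library. No library was a copy of another.

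The members and the gene lists were chosen with earlier results of these data known. A rule took up to 4 genes of each list and the 8 largest rises and falls among genes with a symbol, no overlap between groups and a mean of at least 2 CPM in the higher one, besides genes the study names, which gave 65 genes, not all described. Another 48 genes were chosen after their values were seen. Alternatives were the replicate block, DESeq2 1.42.0, surrogate variables from sva 3.50.0, other scalings and filters, a fit on the 8 libraries alone, glmTreat with 1 log2 unit as its null and leaving out each of the 8 libraries. Promoter motifs were not analysed here, nor were genes without an identifier in the table, such as PDX1 and UCN3.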

Additional observations from a re-analysis of the deposited data

Results flagged for a closer look

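Dixon's test, which marks about 5% of groups by chance, was applied to 264 groups of 4 values of the named genes and summed lists. It set 1 value apart from the other 3 in 13 of them, 4.92%, no more than that rate.

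HSA/d5 replicate 3 was set apart for MYC at 45.7 CPM, PMEPA1 at 248 CPM, PDGFRB at 79.5 CPM, CA2 at 40.2 CPM and MRC2 at 26.2 CPM.

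HSA/d5 replicate 4 was set apart for CHGB at 2498 CPM, CDH2 at 80.3 CPM, EBF1 at 5.17 CPM and the sum of Schwann and neural markers at 1916 CPM.

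HSA + SB/d5 replicate 4 was set apart for ACVR1 at 53.0 CPM, LTBP2 at 5.59 CPM and the sum of Schwann and neural markers at 1501 CPM, and HSA + SB/d5 replicate 1 for SMAD4 at 108 CPM.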

How the results depend on the processing

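The replicate block raised the counts past both thresholds from 136 to 268 genes that rose and from 223 to 371 that fell, and among the genes described it added CEL, CLPS, COL1A1, LOXL4 and POSTN and changed no other call. On the 8 libraries alone the block did not call COL1A1 or POSTN. With 3 surrogate variables 276 rose and 371 fell. A fit on the 8 libraries alone gave 68 and 91, ended the call of 17 genes described, and with the block 230 rose. In it 2 ligand, receptor and SMAD genes fell in place of 6, 4 feedback genes and targets in place of 8, 4 matrix genes in place of 10, and 0 BMP genes in place of 1 and 0 adhesion genes in place of 2. A minimum of 10 counts left 84 that rose. Testing against a log2 fold change of 1 left 12 and 42, which that stricter test brings by its construction. Leaving out 1 library gave 92 to 127 that rose and 144 to 269 that fell. In the LDN libraries 36 rose and 87 fell. There DESeq2's Wald test gave 68 that rose, the block 182 and 203, surrogate variables 197 and 194, the 8 libraries alone 18 that rose, and leaving out 1 library 13 to 39 that rose and 43 to 82 that fell. Matrix genes that fell numbered 10, with the block 16 and without HSA/d5 replicate 3 18. Without that library 2 BMP genes fell in place of 1, and 1 beta cell gene and 1 gene kept low in mature beta cells in place of 0. In place of 0, 1 gene kept low in mature beta cells rose with the block, and 1 gene of other endocrine cells fell with the block and with DESeq2's size factors.

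Of the 113 genes chosen by the rule or after their values were seen, 61 were called, and none of these changed direction. Direction was followed for the 113 genes only. INS, at -0.01, turned to 0.24 with the block, 0.33 with surrogate variables, 0.30 with the block on the 8 libraries, and 0.02, 0.74, 0.16 and 0.25 without HSA/d5 replicates 3 and 4 and HSA + SB/d5 replicates 1 and 2 (range over the 8 libraries -0.45 to 0.74). PRLR, at 0.08, turned to -0.065 and -0.087 without HSA/d5 replicates 1 and 2 and to -0.046 and -0.00 without HSA + SB/d5 replicates 3 and 4 (range -0.087 to 0.31). TGFBR2, at -0.05, turned to 0.10, 0.043 and 0.0013 without HSA/d5 replicate 4 and HSA + SB/d5 replicates 1 and 3 (range -0.22 to 0.10). CDK1, at -0.06, turned to 0.019 without HSA + SB/d5 replicate 2 (range -0.15 to 0.019), and SMAD3, at 0.09, to -0.0019 without HSA/d5 replicate 4 (range -0.0019 to 0.18). The cause was not tested for these changes, apart from the stricter test. With 4 libraries a group, a gene that did not pass the test is not shown to be unchanged.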
